A study of Homo sapiens with 9 samples.

Results

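Of the 60623 genes in the files, 10 were followed by name: GLIS2 and its zinc finger relatives GLIS3 and GLI1, the Hedgehog receptor PTCH1, the ligands BMP2 and BMP4, the receptor BMPR2, and ID1, ID2 and ID3. Each name belonged to 1 Ensembl identifier. The 9 libraries came from U937, a human monocytic cell line, in 3 stable derivatives made with a retroviral vector. They were a single-cell clone with AML1-ETO (#4, labelled AE over-expressed), 1 with ETO2-GLIS2 (#14, labelled EG over-expressed) and a control with the empty vector (labelled WT). Each was sampled at 0, 12 and 48 h of 5 μg/ml doxycycline, which induces the HA-tagged fusion cDNA, so the 12 and 48 h controls carry the drug too. There was 1 library per condition. Differences therefore have no replicate check, a difference between lines cannot be told apart from a difference between clones, and fewer cells that express a gene cannot be told apart from less RNA per cell.

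GLIS2 belongs to the Krüppel-like zinc finger family that also holds the GLI proteins, which carry out Hedgehog signaling. In that pathway PTCH1 restrains the transducer SMO until a Hedgehog ligand binds, and GLI1 and PTCH1 are textbook targets of the activated pathway. Bone morphogenetic proteins (BMPs) are secreted ligands that bind a type II receptor such as BMPR2 and a type I receptor, which together phosphorylate SMAD proteins. The ID genes are classical BMP-SMAD targets. ID proteins have a helix-loop-helix domain but no DNA-binding region, and they hold E proteins such as TCF3 and TCF12 away from DNA. E proteins are also known partners of the ETO part of AML1-ETO. In ETO2-GLIS2 the zinc fingers of GLIS2 supply the DNA-binding part, so reads on GLIS2 in that line add the construct to the endogenous transcript.

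The upstream sequences of the ID genes are shown because ID1 and ID2 were called down after induction of AML1-ETO, while ID3 was too low to be called. For PTCH1, the window of 1 of its 5 RefSeq start sites is shown because it held a GLI site. Each is the 250 bases before a RefSeq start site on GRCh38.p14, written 5′ to 3′ on the strand of the gene, at chr20:31605039-31605288 (+) for ID1, chr2:8681806-8682055 (+) for ID2, chr1:23559502-23559751 (-) for ID3 and chr9:95509267-95509516 (-) for PTCH1. Capitals mark letters that match a searched motif.
ID1: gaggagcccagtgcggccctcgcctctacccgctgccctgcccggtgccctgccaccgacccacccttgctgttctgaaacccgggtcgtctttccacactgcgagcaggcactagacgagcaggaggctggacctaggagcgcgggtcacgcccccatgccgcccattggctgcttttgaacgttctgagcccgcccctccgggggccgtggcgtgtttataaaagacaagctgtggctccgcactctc
ID2: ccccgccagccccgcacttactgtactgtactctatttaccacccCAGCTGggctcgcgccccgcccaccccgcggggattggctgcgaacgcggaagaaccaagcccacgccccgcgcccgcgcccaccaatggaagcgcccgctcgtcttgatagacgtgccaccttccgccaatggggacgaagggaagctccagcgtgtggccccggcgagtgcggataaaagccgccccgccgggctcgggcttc
ID3: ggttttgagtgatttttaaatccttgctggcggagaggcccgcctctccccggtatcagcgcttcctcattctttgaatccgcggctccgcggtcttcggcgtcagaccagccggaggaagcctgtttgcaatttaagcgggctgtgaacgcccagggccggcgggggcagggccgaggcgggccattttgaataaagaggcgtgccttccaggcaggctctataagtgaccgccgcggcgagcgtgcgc
PTCH1: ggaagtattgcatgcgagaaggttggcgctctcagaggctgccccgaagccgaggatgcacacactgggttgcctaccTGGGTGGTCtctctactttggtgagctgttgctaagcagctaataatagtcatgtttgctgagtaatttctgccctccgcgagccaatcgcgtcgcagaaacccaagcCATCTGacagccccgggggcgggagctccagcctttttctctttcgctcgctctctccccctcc
The motifs were searched on both strands: the GLI site GACCACCCA, the core TGGGGGGT of the GLIS site, the BMP-SMAD site GGCGCC, the SMAD box GTCTAGAC, the E-box CANNTG and the RUNX site TGTGGT. No motif overlapped another in these 4 windows. The PTCH1 window held 1 GLI site, from -172 to -164 relative to the start site, in the reverse orientation, and 1 E-box. Among 35116 RefSeq windows of the same length, 0.199% held this GLI site. The ID2 window held 1 E-box, from -205 to -200, and an E-box was found in 61.8% of all windows. The ID1 and ID3 windows held none of the searched letters, which says only that they are not within these bases. The other motifs were found in 1.33% of all windows (GLIS core), 16.4% (BMP-SMAD site), 0.182% (SMAD box) and 11.0% (RUNX site). GC content was 66.0% for ID1, 69.2% for ID2, 62.0% for ID3 and 57.2% for the PTCH1 window, against a median of 58.0% over all windows.

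Library totals, recovered from the FPKM values, ranged from 15136399 to 18443641 reads on genes. FPKM is the reads on a gene scaled to the length of its exons and to the library total. Intervals given below are exact 95% intervals computed on recovered reads, for counting error alone. In the vector control, 65.6% of the tested genes had an interval without 0 at 48 h, so an interval without 0 is common and says nothing of variation between cultures. Fold changes are on the scale of log2(FPKM + 0.01), which understates the change of low genes, and a gene was called when it passed 2-fold and its FPKM averaged 1 or more over both libraries. RUNX1T1, which encodes ETO, had 0.512, 22.2 and 28.7 FPKM in the AML1-ETO clone and did not exceed 0.0240 FPKM in the other lines. CBFA2T3, which encodes ETO2, had 4.10, 11.4 and 12.6 FPKM in the ETO2-GLIS2 clone, and in the AML1-ETO clone it had 5.26, 2.28 and 0.220 FPKM. RUNX1, which encodes AML1, had 17.4, 17.8 and 16.8 FPKM in the AML1-ETO clone. Of 13 monocytic markers, 8 to 10 had at least 1 FPKM in each library, while MPO did not exceed 0.780 FPKM, and CD14 and CD68 did not exceed 0.0802 and 0.0283 FPKM. The markers CD3D, CD3E and CD3G of T cells were listed at 0 throughout. The summed level of 5 megakaryocyte markers was 1.07 to 2.37 FPKM, most of it GP1BA, with GP9, PF4 and PPBP listed at 0 in all 9 libraries. That of 3 B cell markers was 1.91 to 5.77 FPKM, with MS4A1 at 0, and those of 4 erythroid and 4 stromal markers were at most 0.350 and 0.270 FPKM.

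In the plain levels, 5 of the 10 genes (GLIS2, PTCH1, BMPR2, ID1 and ID2) had a mean of at least 1 FPKM over the 9 libraries. GLI1, BMP2 and ID3 were lower, GLIS3 had 0 to 2 reads per library, and BMP4 was listed at 0 in every library. ID2 was the most abundant per length, with a mean of 15.5 FPKM, followed by ID1 with 5.75 FPKM, BMPR2 with 5.29 FPKM and GLIS2 with 4.57 FPKM. For 5 of the 10, the exon length recovered from the FPKM values equalled the annotated exon bases exactly.

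Among the zinc finger genes, GLIS2 rose in the ETO2-GLIS2 clone and fell in the AML1-ETO clone. GLIS2 (ENSG00000126603) lies on chromosome 16 of GRCh38.p14 from 4314761 to 4339595. In the ETO2-GLIS2 clone it had 2.39, 6.79 and 8.85 FPKM at 0, 12 and 48 h, from 197, 543 and 647 reads. In the AML1-ETO clone it had 5.60, 2.93 and 2.47 FPKM, and in the vector control 4.76, 3.64 and 3.72 FPKM. The 2 induced ETO2-GLIS2 libraries were thus the highest of all 9, while the uninduced ETO2-GLIS2 library was the lowest and did not differ from the AML1-ETO library at 48 h beyond counting error. Between 48 and 0 h the log2 difference was 1.88 in the ETO2-GLIS2 clone (95% interval 1.66 to 2.13), -1.18 in the AML1-ETO clone (-1.45 to -0.92) and -0.35 in the vector control (-0.59 to -0.12). At 12 h GLIS2 was already 2.83-fold higher than at 0 h (log2 interval 1.27 to 1.75). In the AML1-ETO clone, whose construct holds no GLIS2 sequence, the log2 value was -0.93 at 12 h, and the further difference was -0.24 (-0.55 to 0.06) from 12 to 48 h. After the change of the vector control was subtracted, -0.82 remained at 48 h. Directly against the vector control, GLIS2 in the AML1-ETO clone differed by 0.23 at 0 h (0.03 to 0.44) and by -0.59 at 48 h (-0.88 to -0.30). Against the uninduced vector control, GLIS2 in the uninduced ETO2-GLIS2 clone was lower by 0.99 on the log2 scale (-1.25 to -0.74), and 3.02% of the tested genes were lower still. An exon of another gene (ENSG00000262712) on the opposite strand covers 23.5% of the GLIS2 exon bases, and the library kit does not mark strand, so reads of that gene may be among those counted here.

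GLIS3 (ENSG00000107249, chromosome 9 from 3824127 to 4490465), another GLIS family member, had 2 reads in the AML1-ETO clone at 48 h and in the ETO2-GLIS2 clone at 12 h, 1 read in the uninduced vector control and AML1-ETO libraries, and 0 reads in the other 5 libraries. No library exceeded 0.0110 FPKM, so a change was not detectable at this depth. GLIS1, of the same family, was listed at 0 in all 9 libraries.

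GLI1 (ENSG00000111087, chromosome 12 from 57459785 to 57472268), the activator that reports Hedgehog signaling, rose at 48 h in the AML1-ETO clone. In that line it had 0.331, 0.455 and 2.45 FPKM at 0, 12 and 48 h, from 25, 32 and 170 reads. The vector control had 0.216, 0.449 and 0.584 FPKM (16, 31 and 41 reads), and the ETO2-GLIS2 clone had 0.250, 0.270 and 0.536 FPKM (21, 22 and 40 reads). The AML1-ETO library at 48 h was higher than each of the others, which lay between 0.216 and 0.584 FPKM, and no 2 neighbours in the order of the other 8 libraries differed beyond their counting error. Between 48 and 0 h the log2 difference was 2.85 in the AML1-ETO clone (2.28 to 3.56), 1.40 in the vector control (0.57 to 2.37) and 1.07 in the ETO2-GLIS2 clone (0.31 to 1.94). The AML1-ETO clone thus exceeded the change of the vector control by 1.46, and was 2.05 higher than it at 48 h (1.57 to 2.60). From 12 to 48 h the log2 change was 2.40 (1.88 to 3.02). Of the tested genes 2.47% rose further in the AML1-ETO clone at 48 h. At 12 h GLI1 in that line differed from the vector control by 0.02 (-0.74 to 0.78). In the other lines GLI1 had a mean FPKM under 1 and did not enter the calls. In the AML1-ETO clone it passed the filter only through its library at 48 h, so up was the only call it could receive there. The call is lost when genes past 2-fold in the vector control, GLI1 among them, are left out.

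PTCH1 (ENSG00000185920), on chromosome 9 from 95442980 to 95516971, did not follow GLI1. It had 1.87, 1.96 and 1.03 FPKM in the AML1-ETO clone (514, 503 and 259 reads), 2.19, 1.90 and 1.70 FPKM in the vector control and 1.53, 1.71 and 1.26 FPKM in the ETO2-GLIS2 clone. Each line was lowest at 48 h, and the AML1-ETO library at 48 h was the lowest of all. Between 48 and 0 h the log2 difference was -0.86 in the AML1-ETO clone (-1.09 to -0.65), -0.36 in the vector control (-0.55 to -0.18) and -0.27 in the ETO2-GLIS2 clone (-0.48 to -0.07), none of them past 2-fold. Of the tested genes 13.3% fell further in the AML1-ETO clone.

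Of the other Hedgehog and GLI-related genes, 23 were listed by hand and 5 passed the expression filter in the AML1-ETO clone at 48 h, of which 1 was called up and 1 down, where 17.3% and 11.3% of all tested genes were. STK36, a kinase homologous to fused of the fly pathway, had 3.34, 4.07 and 9.07 FPKM in the AML1-ETO clone, a log2 difference of 1.44 between 48 and 0 h, against 0.29 in the vector control and 0.90 in the ETO2-GLIS2 clone. GAS1, a surface co-receptor for Hedgehog ligands, had 2.05, 1.09 and 0.146 FPKM there, a log2 difference of -3.72. The difference was -0.50 in the vector control and -0.67 in the ETO2-GLIS2 clone. In the AML1-ETO clone at 48 h GAS1 passed the filter only through its library at 0 h. None of 6 such genes in the vector control and none of 5 in the ETO2-GLIS2 clone passed 2-fold at 48 h, where 11.0% of all tested genes were past it in the former, and 10.8% up and 2.54% down in the latter. SMO, the transducer on which PTCH1 acts, did not exceed 0.0692 FPKM in any library. GLI3, mainly a repressor, lay between 0.560 and 1.60 FPKM.

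Both BMP ligands were low. BMP2 (ENSG00000125845, chromosome 20 from 6767686 to 6780246) was set apart by the uninduced AML1-ETO clone. It had 1.02, 0.493 and 0.0927 FPKM in the AML1-ETO clone, from 60, 27 and 5 reads. The vector control had 0.0173, 0.112 and 0.110 FPKM (1, 6 and 6 reads), and the ETO2-GLIS2 clone had 0.107, 0.205 and 0.121 FPKM (7, 13 and 7 reads). Before induction the AML1-ETO clone was higher than the other lines, and by 48 h the 3 lines lay between 0.0927 and 0.121 FPKM. The log2 fold change in the AML1-ETO clone was -1.03 at 12 h (-1.76 to -0.37) and -3.33 at 48 h (-5.14 to -2.16). Against the vector control the log2 difference was 5.24 at 0 h (3.35 to 11.2), 2.05 at 12 h (0.84 to 3.71) and -0.22 at 48 h (-2.30 to 1.73). The first of these rests on 1 read in the vector control and moved to 3.26 with a pseudocount of 0.1. In the vector control and the ETO2-GLIS2 clone the intervals of the changes at 12 and 48 h held 0. With mean FPKM values under 1, BMP2 entered no call. BMP4 (ENSG00000125378, chromosome 14 from 53949736 to 53956891) was listed at 0 in all libraries.

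BMPR2 (ENSG00000204217), the type II receptor, on chromosome 2 from 202376327 to 202567749, stayed between 3.91 and 6.88 FPKM. It had 5.04, 4.69 and 5.11 FPKM in the vector control, 5.41, 3.91 and 5.67 FPKM in the AML1-ETO clone and 5.53, 5.38 and 6.88 FPKM in the ETO2-GLIS2 clone. The AML1-ETO clone had a log2 value of -0.47 at 12 h (-0.60 to -0.33) and of 0.07 at 48 h (-0.05 to 0.19). The ETO2-GLIS2 clone was 0.31 higher at 48 h than at 0 h (0.20 to 0.42), against 0.02 (-0.11 to 0.15) in the vector control. None of these values passed 2-fold.

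**Figure D1:**
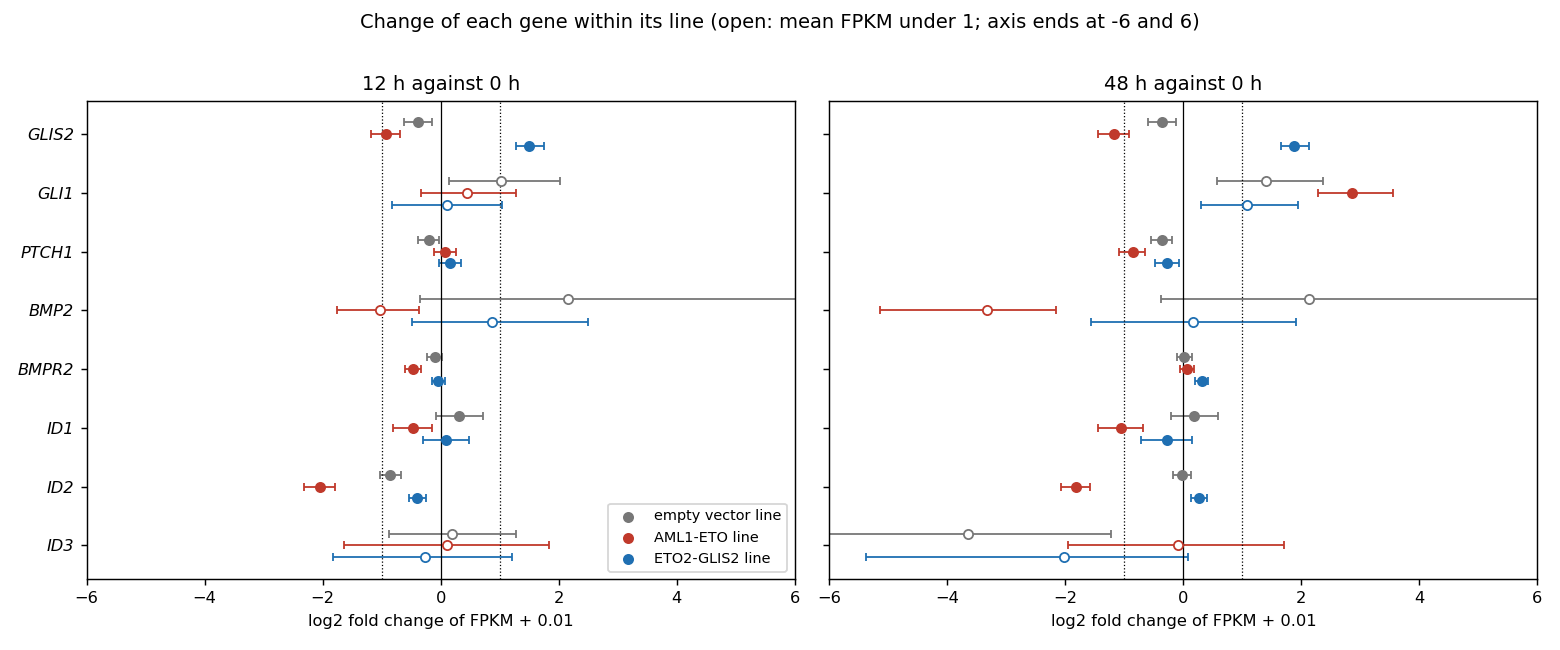
Log2 fold change of FPKM + 0.01 (x axis) for 8 of the genes (y axis) at 12 h (left) and 48 h (right) against 0 h in the 3 lines. Bars are exact 95% intervals for counting error, open points have a mean FPKM under 1, and dotted lines mark 2-fold. GLIS3 and BMP4 had too few reads. At 12 h only ID2 in the AML1-ETO clone and GLIS2 in the ETO2-GLIS2 clone are filled points past 2-fold.

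ID1 and ID2 were called down in the AML1-ETO clone at 48 h, and ID3 had too few reads for a call. ID2 (ENSG00000115738), on chromosome 2 from 8682056 to 8684461, fell early and deeply in the AML1-ETO clone. It had 17.7, 4.27 and 4.99 FPKM there at 0, 12 and 48 h, from 650, 146 and 168 reads. The vector control had 20.1, 11.1 and 19.8 FPKM (724, 373 and 676 reads), and the ETO2-GLIS2 clone had 20.6, 15.7 and 24.7 FPKM (841, 621 and 895 reads). All 3 lines were lower at 12 h than at 0 h, but only the induced AML1-ETO libraries stayed low, and both lay under each of the other 7. The log2 fold change in the AML1-ETO clone was -2.05 at 12 h (-2.32 to -1.79) and -1.83 at 48 h (-2.08 to -1.58). In the vector control it was -0.85 at 12 h (-1.04 to -0.67) and -0.02 at 48 h (-0.17 to 0.13), and in the ETO2-GLIS2 clone -0.39 (-0.55 to -0.24) and 0.26 (0.13 to 0.40). At 12 h, 0.620% of the tested genes of the AML1-ETO clone fell further than ID2, and 2.32% did so in the vector control. In the AML1-ETO clone at 48 h, 4.55% of the tested genes fell further. Subtraction of the vector control left -1.20 at 12 h and -1.81 at 48 h in the AML1-ETO clone. ID2-AS1, on the opposite strand, covers 6.55% of the ID2 exon bases.

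ID1 (ENSG00000125968, chromosome 20 from 31605289 to 31606510) also fell in the AML1-ETO clone, from a higher start. It had 9.34, 6.73 and 4.48 FPKM there, from 191, 128 and 84 reads. The vector control had 5.04, 6.27 and 5.74 FPKM, and the ETO2-GLIS2 clone had 4.88, 5.21 and 4.02 FPKM. The uninduced AML1-ETO library was the highest of the 9, and the ETO2-GLIS2 library at 48 h was the lowest. In the order of the 8 libraries under the highest, no neighbours differed beyond counting error, but libraries farther apart could. Between 48 and 0 h the log2 difference was -1.06 in the AML1-ETO clone (-1.45 to -0.68), 0.19 in the vector control (-0.21 to 0.59) and -0.28 in the ETO2-GLIS2 clone (-0.71 to 0.14). At 0 h ID1 in the AML1-ETO clone exceeded the vector control by 0.89 (0.54 to 1.25), and at 48 h the difference was -0.36 (-0.79 to 0.06). Measured against the vector control at 48 h, the lower ID1 of the AML1-ETO clone was therefore within counting error. The ETO2-GLIS2 clone differed from the vector control at 48 h by -0.52 (-0.95 to -0.09), so low ID1 at that time was not particular to the AML1-ETO clone.

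ID3 (ENSG00000117318), on chromosome 1 from 23557926 to 23559501, had at most 17 reads per library. It had 16, 17 and 1 reads in the vector control (0.657, 0.751 and 0.0434 FPKM) and 10, 8 and 2 reads in the ETO2-GLIS2 clone (0.362, 0.299 and 0.0817 FPKM). In the AML1-ETO clone it had 7, 7 and 6 reads (0.282, 0.303 and 0.264 FPKM). The low values at 48 h lay in the 2 lines without AML1-ETO. Between 48 and 0 h the log2 difference was -3.64 in the vector control (-9.31 to -1.23), -2.02 in the ETO2-GLIS2 clone (-5.38 to 0.08) and -0.10 in the AML1-ETO clone (-1.95 to 1.70). These rest on a handful of reads, and the difference between lines was not tested. ID4 was listed at 0 in all 9 libraries.

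Of the 6 genes that passed the filter in the AML1-ETO clone at 48 h, 1 was called up (GLI1, which passed only through its high library) and 3 down (GLIS2, ID1 and ID2). Among all 12030 genes tested in that comparison, 17.3% were up and 11.3% down. At 12 h 1 of 5 was called, ID2 down, where 2.39% of all tested genes were down and 6.57% up. In the ETO2-GLIS2 clone 1 of 5 was called at each time, GLIS2 up, and no other gene. Reads on GLIS2 there include the induced construct, so its call says nothing of the endogenous gene. Of all tested genes in that clone 3.03% were up and 1.46% down at 12 h, and 10.8% up and 2.54% down at 48 h. In the vector control 0 of 5 were called at 12 or 48 h, against 7.53% and 11.0% of all tested genes in either direction. With 1 library per condition these calls are fold thresholds and no test. Between lines at the same time, ID2 was past 2-fold lower in the AML1-ETO clone than in the vector control at 12 h (-1.38) and 48 h (-1.99), where 4.37% and 11.7% of genes were lower by this threshold. GLI1 was past it upward in the AML1-ETO clone at 48 h, where 11.8% of genes were, but it again passed the filter only through that library. GLIS2 was past it upward in the ETO2-GLIS2 clone at 48 h, against 4.15% of genes, again with the construct among its reads. At 12 h none of 5 genes was past it between the ETO2-GLIS2 clone and the vector control, against 6.94% of genes. At 0 h none of 5 genes was past 2-fold between a fusion line and the vector control, against 4.9% of genes for AML1-ETO and 6.41% for ETO2-GLIS2.

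**Figure D2:**
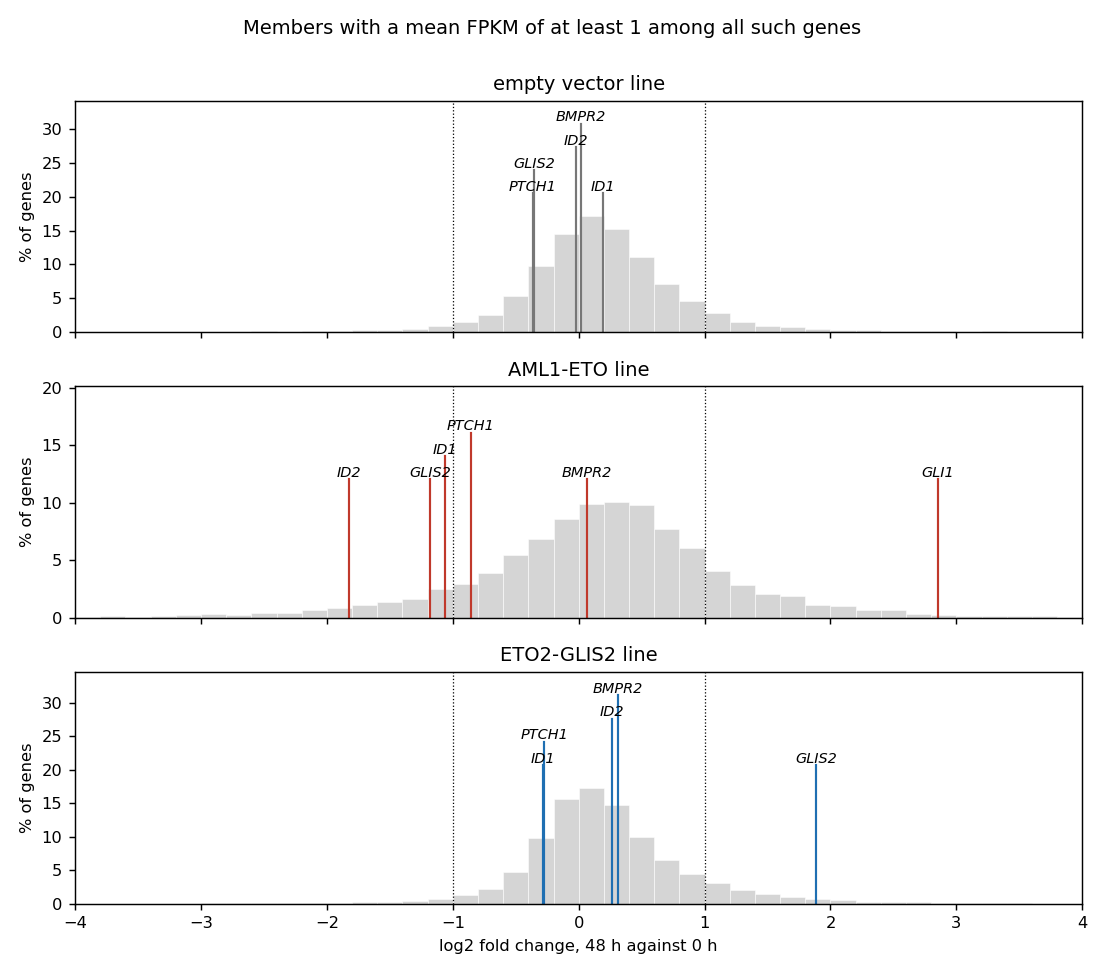
Share of all tested genes (mean FPKM 1 or more) (y axis, %) by log2 fold change at 48 h against 0 h (x axis) in each line, with lines for the followed genes that passed the same filter. Dotted lines mark 2-fold, and values beyond -4 and 4 are not drawn. The AML1-ETO clone has the widest distribution, with ID2 at -1.83 and GLI1 at 2.85, and in the ETO2-GLIS2 clone GLIS2 lies at 1.88.

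The median log2 fold change of all tested genes at 48 h was 0.16 in the vector control, 0.22 in the AML1-ETO clone and 0.16 in the ETO2-GLIS2 clone. Rescaling the libraries by their median ratio brought these to 0.04, 0.12 and 0.06. On that scale the changes at 48 h were -1.92 for ID2, -1.15 for ID1, -1.27 for GLIS2 and 2.76 for GLI1 in the AML1-ETO clone, and 1.79 for GLIS2 in the ETO2-GLIS2 clone. The most abundant of the 13 monocytic markers weigh most in their summed level, which does not show the course of each marker. This sum was lower at 48 h than at 0 h in each line. In the AML1-ETO clone it was 2952, 3022 and 359 FPKM at 0, 12 and 48 h, against 1839, 1868 and 1042 FPKM in the vector control and 2625, 2609 and 935 FPKM in the ETO2-GLIS2 clone. Its part in the changes of GLI1, ID1, ID2 and GLIS2 was not tested.

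Over all the hand-written lists, 80 genes beside the 10 were looked up, and 29 passed the filter in the AML1-ETO clone at 48 h, of which 5 were called up and 6 down, where 17.3% and 11.3% of all tested genes were. The vector control had 2 up and 1 down of 29, where 8.0% and 2.99% of all tested genes were, and the ETO2-GLIS2 clone had 2 up and 1 down of 27, where 10.8% and 2.54% were. Their median log2 fold changes were 0.26, 0.26 and 0.24, near the medians of all tested genes given above.

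Of 12 further BMP ligands, only BMP8B passed the filter, and it fell in each line. It had 4.23, 3.11 and 0.781 FPKM in the vector control, 4.59, 2.81 and 0.776 FPKM in the AML1-ETO clone and 2.75, 2.33 and 0.621 FPKM in the ETO2-GLIS2 clone. The log2 fold changes at 48 h were -2.42, -2.55 and -2.13, so the change was shared with the line that carries no fusion protein. At 48 h BMP8B was under 1 FPKM in each line, so it passed the filter there only through the libraries at 0 h.

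Among the receptors, 5 of 10 passed the filter in the AML1-ETO clone at 48 h, and 2 were called up and 0 down, where 17.3% and 11.3% of all tested genes were. ACVR1, a type I BMP receptor, had 3.13, 2.76 and 9.98 FPKM, a log2 difference of 1.67 between 48 and 0 h against 0.09 in the vector control and -0.08 in the ETO2-GLIS2 clone. ACVRL1, the type I receptor known from endothelium, had 0.443, 1.16 and 4.39 FPKM, a log2 difference of 3.28. It did not exceed 0.655 FPKM in the other 6 libraries, and it passed the filter only through its library at 48 h. Endoglin (ENG), a co-receptor, was the most abundant of the list at 16.2 to 30.2 FPKM and passed 2-fold in no line. Of the SMAD proteins that carry the BMP signal, SMAD1 was listed at 0 in all libraries and SMAD9 did not exceed 0.620 FPKM. SMAD5 had 2.05 to 3.49 FPKM and SMAD4 had 3.54 to 6.38 FPKM. In the AML1-ETO clone at 48 h, 2 of these 4 genes passed the filter and 0 were called. Of all tested genes 17.3% were called up there and 11.3% down.

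Of 16 inhibitors of the pathway, 9 passed the filter in the AML1-ETO clone at 48 h, and 2 were called up and 2 down, where 17.3% and 11.3% of all tested genes were. BAMBI, a decoy receptor without a kinase domain, had 7.16, 17.4 and 41.3 FPKM, a log2 difference of 2.53, against 0.68 in the vector control and 0.74 in the ETO2-GLIS2 clone. It was the only gene of the lists called up at 12 h, with 1.28. In that comparison 27 listed genes passed the filter, and 1 was called up and 1 down, where 6.57% and 2.39% of all tested genes were. SMAD7, an inhibitory SMAD and itself a BMP and TGF-β target, had 6.27, 3.26 and 2.06 FPKM, a log2 difference of -1.60, against 0.59 in the vector control and 0.47 in the ETO2-GLIS2 clone. It was also the 1 gene called down among 3 that passed of 8 further BMP targets, of which 0 were called up. SKI, a SMAD corepressor, had 31.0, 21.4 and 14.5 FPKM, a log2 difference of -1.10, against 0.07 in the vector control and 0.47 in the ETO2-GLIS2 clone. FSTL3, a follistatin-like binding protein, was called up in all 3 lines, with 1.10 in the vector control, 1.56 in the AML1-ETO clone and 1.02 in the ETO2-GLIS2 clone. SKIL, the relative of SKI, rose by 1.91 in the vector control and by 1.71 in the ETO2-GLIS2 clone, and its change in the AML1-ETO clone was -0.48.

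Of the basic helix-loop-helix proteins that ID proteins bind or compete with, 6 of 9 passed the filter in each line. In the AML1-ETO clone 0 were called up and 2 down at 48 h, where 17.3% and 11.3% of all tested genes were. BHLHE40, a transcriptional repressor, had 22.9, 6.73 and 1.31 FPKM, a log2 difference of -1.76 at 12 h and -4.12 at 48 h, while in the other lines it stayed between 17.0 and 25.5 FPKM. LYL1, a hematopoietic factor that partners E proteins, had 47.7, 44.2 and 18.5 FPKM, a log2 difference of -1.37 between 48 and 0 h. In the ETO2-GLIS2 clone LYL1 had 34.6, 21.3 and 19.5 FPKM, a log2 difference of -0.83, and in the vector control 46.6, 47.8 and 54.7 FPKM. The E proteins TCF3 and TCF12 passed 2-fold in no line. TCF3 had 51.4, 43.2 and 28.8 FPKM in the AML1-ETO clone, a log2 difference of -0.84, and TCF12 lay between 19.3 and 27.0 FPKM over all libraries.

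**Figure D3:**
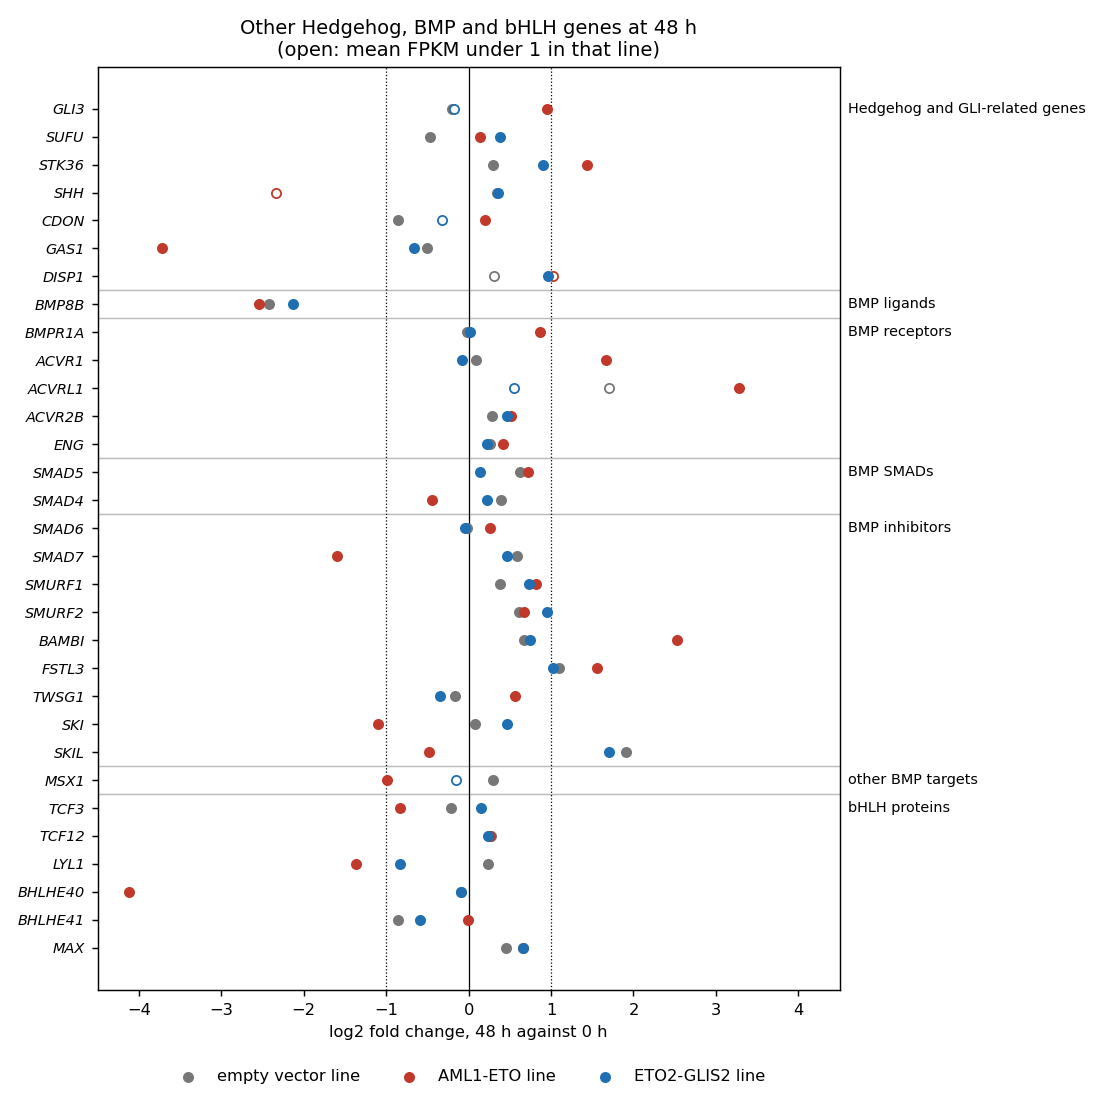
Log2 fold change at 48 h against 0 h (x axis) of the listed Hedgehog, BMP and bHLH genes that had a mean FPKM of at least 1 in at least 1 line (y axis), grouped by list. Each point is 1 line, open points have a mean FPKM under 1 in that line, and dotted lines mark 2-fold. BHLHE40 (-4.12) and GAS1 (-3.72) lie farthest left and ACVRL1 (3.28) farthest right, all in the AML1-ETO clone, while the points of BMP8B lie together.

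The genes with the most similar profile were looked up for GLIS2, ID1 and ID2, by the root mean square difference of centred log2 values over the 9 libraries, among 10987 genes. Libraries of 1 line share their clone, so the 9 points are not independent. For ID2, whose own root mean square deviation was 0.87, the nearest were TMEM173 (0.35), GCLM (0.39) and AL117328.1 (0.40). TMEM173, which encodes the DNA-sensing adaptor STING, had 16.7, 8.12 and 5.33 FPKM in the AML1-ETO clone and 18.2, 18.7 and 20.9 FPKM in the vector control. It did not share the dip of ID2 in the vector control at 12 h, whereas GCLM, a subunit of the enzyme that starts glutathione synthesis, did, with 8.13, 5.38 and 7.29 FPKM. For ID1, with a deviation of 0.34, the nearest were ZHX2 and AC020904.2 (0.16 each) and NFAM1 (0.17). For GLIS2, with 0.62, the nearest were MAP3K14 (0.27), AC000072.1 (0.34) and ARMC5 (0.36). The GLIS2 profile they were matched to includes reads of the construct in the ETO2-GLIS2 clone. MAP3K14, the kinase NIK, went from 1.16 to 2.72 FPKM between 0 and 48 h in the ETO2-GLIS2 clone and from 1.67 to 0.893 FPKM in the AML1-ETO clone.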

How the data were processed

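RNA-seq of U937 lines was analysed in 9 libraries, 1 per condition, grouped by the sample labels. TruSeq libraries were made from total RNA. The authors aligned reads to hg38 with HISAT2 (2.0.5), handled alignments with SAMtools (1.7), counted them on genes with HTSeq (0.9.1) at default parameters and deposited FPKM values. The submitters' processing notes also name DESeq2 (1.22.2), with no role given. HTSeq counts by strand at its defaults, whereas this kit does not mark strand. If that setting was kept, each FPKM lacks the reads that fell on the other strand. The annotation version is not given in the sources used here.

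Whole reads were recovered (Python 3.11.15; scipy 1.17.1, numpy 2.4.6), since reads, exon lengths and library totals are whole numbers, with a tolerance of 0.004 reads plus 1.2e-05 of the value and for genes under 8000 reads. Of the genes above 0 in 3 or more libraries, 98.3% gave whole reads. On simulated data 99.2% of 20059 genes were given their exact reads, and for the AML1-ETO clone at 48 h against 0 h, 195 of 200 genes changed 4-fold were called. These genes were drawn from above the filter level at 0 h and carried counting error alone. The simulation therefore did not test calls near 2-fold, calls of low genes or variation between cultures. Intervals are exact 95% Clopper-Pearson intervals for ratios and Poisson intervals for levels. They cover counting error only, and PCR copies cannot be told from separate molecules. No p-value was computed. The pseudocount, the filter, the fold threshold and the scaling of libraries were varied.

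Genes were named as follows: the 10 members, listed genes called at 48 h, genes of the constructs, and the 3 nearest profiles of members past 2-fold at 48 h whose FPKM averaged 1 or more across all 9 libraries, which leaves out GLI1. GLIS1, GLI3, SMO, ID4, ENG, the SMAD genes, TCF3 and TCF12 were named after their values were seen. The members and lists were chosen with earlier results of these data known. Coordinates and upstream sequences are from RefSeq (GRCh38.p14). All 10 members matched a RefSeq gene. Upstream sequences for GLIS2, GLI1 and BMP2 were not used here. Shares of overlapping exons are from GENCODE on GRCh37, from which no coordinates were taken. Plots were drawn with matplotlib (3.10.9). ChIP-seq was not analysed here.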

Additional observations from a re-analysis of the deposited data

Results flagged for a closer look

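Some genes had log2 changes of opposite sign in 2 lines at both 12 and 48 h. With 1 library per condition, the difference was not tested in any case.

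For GLIS2, the log2 fold change at 48 h in the AML1-ETO clone minus that in the ETO2-GLIS2 clone was -3.06, and the vector control minus the ETO2-GLIS2 clone gave -2.24. All 4 counting intervals behind each of these excluded 0. The rise in the ETO2-GLIS2 clone includes the construct.

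For ID1, the vector control minus the AML1-ETO clone gave 1.25 at 48 h, and 2 of the 4 intervals excluded 0, both in the AML1-ETO clone.

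For BMP2, the vector control minus the AML1-ETO clone gave 5.46, and the AML1-ETO clone minus the ETO2-GLIS2 clone gave -3.49. The intervals without 0 were the 2 of the AML1-ETO clone, which had 60 reads on BMP2 before induction against 1 and 7 reads in the other uninduced lines.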

How the results depend on the processing

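The number of the 10 genes called past 2-fold was recomputed under each alternative. Without a filter on low values it was 2 at 12 h (GLI1 and BMP2) and 3 at 48 h (GLI1, BMP2 and ID3) in the vector control in place of 0, 2 at 12 h in the AML1-ETO clone (BMP2 and ID2) in place of 1, and 3 at 48 h in the ETO2-GLIS2 clone (GLIS2, GLI1 and ID3) in place of 1. A 1.5-fold threshold gave 1 at 12 h in the vector control (ID2) and 2 at 12 h in the AML1-ETO clone (GLIS2 and ID2), as did rescaling by the median ratio in the latter. With a mean FPKM of at least 5 there were 2 at 48 h in the AML1-ETO clone (ID1 and ID2) in place of 4, and 0 at 12 h in the ETO2-GLIS2 clone in place of 1. Leaving out genes past 2-fold in the vector control gave 3 at 48 h in the AML1-ETO clone in place of 4, and the lost call was GLI1, the only one upward. A pseudocount of 0.1 changed none of these counts by over 1.5 times. No called fold change reversed. Of 127 log2 values of single genes, rescaling turned the sign of 5, all at most 0.10 in size, and a pseudocount of 0.1 moved 1, BMP2 at 0 h between lines, beyond its interval. No paired analysis was possible because each condition has 1 library. For the same reason no library could be left out. Genes with under about 20 reads, ID3, GLIS3 and most BMP2 values, are limited by depth.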
